A study of Schizosaccharomyces pombe with 28 samples.

Results

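Occupancy of the myc-tagged chromatin remodeller Hrp3 over open reading frames (ORFs) of the fission yeast Schizosaccharomyces pombe was measured by chromatin immunoprecipitation on spotted DNA arrays (ChIP-chip). The arrays are the 3 of the series' 28 samples whose labels name Hrp3 binding over ORFs and carry the code K080D, and they are called slide 1, slide 2 and slide 3 here as in the labels. Each array was hybridised with immunoprecipitated DNA (IP) of Hrp3-myc, labelled with Cy3, and with input DNA, labelled with Cy5. Control and missing features were left out, which left 5005 ORF features with a value on all 3 arrays, each spotted in 2 copies that were averaged. An ORF was called high where its log2(IP/input) ratio had a percentile rank of at least 0.92 on every agreeing array, and low where the rank was at most 0.08.

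The series belongs to a study of the Swm1/2 histone demethylase complex, in which the genome-wide binding of Hrp1 and Hrp3 was used to ask which genes the complex and the remodellers share. The 3 arrays of its paralogue Hrp1 over the same ORFs, with the same dyes for IP and input, are used below for comparison. The Hrp1 array called A260E carries that code, and the other Hrp1 arrays carry K080D like those of Hrp3. The labels give the tag and the dyes but not the strain's genotype, the growth conditions or whether the 3 arrays came from separate cultures. The p-values therefore measure only the spread between these arrays, which may be technical. No array of an untagged strain or of a mock immunoprecipitation was analysed here, so no ratio below is set against a background of the immunoprecipitation itself. In a tagged strain the array reports DNA pulled down with the tagged protein, and enrichment that any open or highly transcribed ORF would show cannot be told apart from enrichment that belongs to Hrp3.

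Hrp3 is a Snf2-type ATPase of the CHD1 family, with paired chromodomains, and its paralogue in fission yeast is Hrp1. Remodellers of this family use ATP to space and reassemble nucleosomes and are known for their work over transcribed gene bodies, where passing RNA polymerase II disturbs the histones. In ChIP-chip, an ORF that a protein occupies more than the typical ORF gives a positive centred log2 ratio, and an ORF occupied less gives a negative one. Every ratio here was centred on the median of its own array, so 0 is the typical ORF of that array and not an absence of Hrp3.

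The question of which ORFs stand high depended on slide 1. Across the 5005 ORF features, which are not independent replicates, the log2 ratios of slides 2 and 3 had a Spearman correlation of 0.691 and a Pearson correlation of 0.759. Slide 1 correlated negatively with both, with a Spearman correlation of -0.20 with slide 2 and of -0.25 with slide 3, and Pearson correlations of -0.23 and -0.27. The 2 copies of a feature within slide 1 had a Spearman correlation of 0.906, against 0.814 within slide 2 and 0.919 within slide 3, so slide 1 was as repeatable within itself as the other arrays. Slides 2 and 3 are therefore the agreeing arrays, and the values of slide 1 are printed beside theirs. Whether the dyes of slide 1 were exchanged against its label was not settled by these data, and its ratio is given as labelled and, where stated, with its sign turned.

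The arrays also differed in their background. The median local background of slide 1 was 4 in Cy3 and 2084.75 in Cy5, that of slide 2 was 997 and 1658, and that of slide 3 was 264 and 201. Spots at least 1.5 times above the background in both dyes made up 89.6% of slide 1, 71.3% of slide 2 and 99.3% of slide 3. The authors' own deposited values hold a single dye rather than a ratio, and in rank they followed Cy5 on slide 1 (Spearman correlation 0.982, and 0.893 with Cy3) but Cy3 on slide 2 (0.981, and 0.793 with Cy5) and on slide 3 (0.987, and 0.820 with Cy5).

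**Figure D1:**
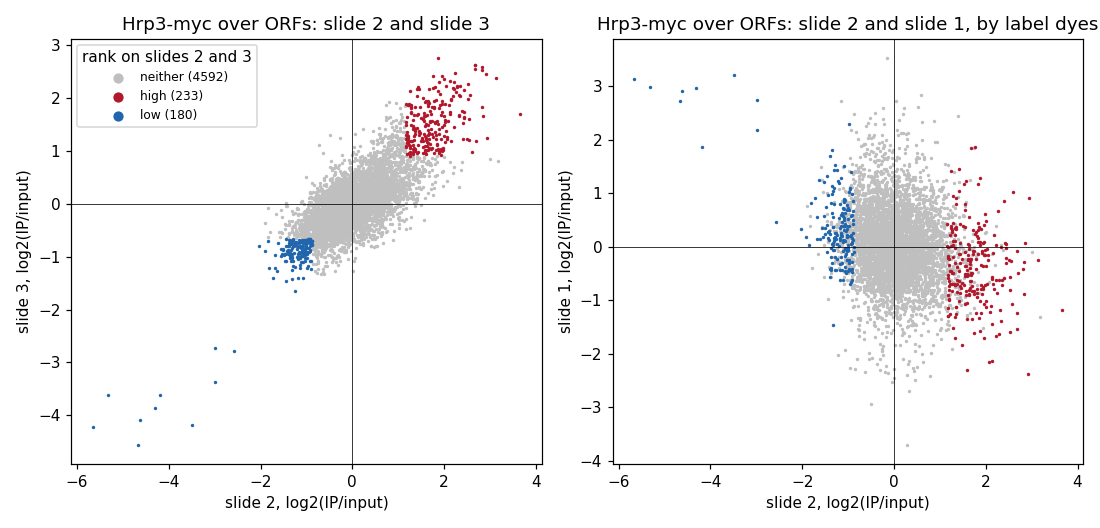
Log2(IP/input) of each ORF feature on slide 2 (horizontal axes, both panels) against slide 3 (left) and slide 1 (right), each point an ORF, red for the 233 high and blue for the 180 low ORFs of slides 2 and 3. The left cloud runs along the diagonal and the right one does not, and the 10 lowest ORFs of slide 2 lie above 0 on slide 1.

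Hrp3-myc ranked high over 233 ORFs on slides 2 and 3, 4.66% of the 5005, and low over 180 ORFs, 3.6%. A rank past either limit on a single array is met by 401 ORFs, 8.01% at each end. The high ORFs had a median log2 ratio of 1.67 on slide 2 and 1.48 on slide 3, and the low ORFs of -1.15 and -0.88. These values chose the ORFs and are a description. The ranks of slide 1 were not used, but slide 1 was left out for its negative correlation with slides 2 and 3. Its values for these classes are therefore tied to that choice and are no independent readout. On slide 1 the high ORFs had a median of -0.42, with 169 of 233 (72.5%) below 0. The low ORFs had a median of 0.25, with 130 of 180 (72.2%) above 0 (of all ORFs, 2501 were below and 2504 above 0). On slide 1 as labelled, 10 high ORFs were in the top and 49 in the bottom 401, and 29 low ORFs were in the top and 1 in the bottom.

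The limits of the 2 classes cut through a continuous range. Just inside the high class, ssa1 (SPAC13G7.02c), a cytosolic Hsp70 chaperone, had 1.16 on slide 2 and 1.54 on slide 3, and the small heat shock gene hsp16 had 1.16 and 1.87. Just outside it, ura1 had 1.16 and 0.98. At the low limit, SPBC13G1.12 was inside with -0.88 and -0.70, and the iron-responsive regulator gene php4 (SPBP16F5.09c) was outside with -0.87 and -0.69.

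With the dyes of all 3 arrays as labelled, limma's moderated test of the mean log2 ratio against 0 called no ORF higher (0%) and no ORF lower (0%) at an adjusted p of 0.05 over the 5005 features. The lowest adjusted p was 0.685, and 329 ORFs, 6.57% of all, had an unadjusted p under 0.05. With the sign of slide 1 turned the same test called 70 ORFs higher, 1.4% of all, and 17 lower, 0.34%. Of these 87 ORFs, 68 were high and 17 were low by rank on slides 2 and 3, and the other two, SPBC17D1.08 and c359_sanger_10, were in neither class. The values of slides 2 and 3 enter both the turned test and the ranks, so this overlap is a description. The sign was turned because of the arrays' own correlation, so these calls are not independent of that choice. Without slide 1 the test on slides 2 and 3 called 1366 ORFs, and without slide 2 or without slide 3 it called none.

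The highest ORFs of slides 2 and 3 included genes of metabolism, the cell surface and chromatin. gpm1, which encodes phosphoglycerate mutase of glycolysis, had a log2 ratio of 2.82 on slide 2, 2.58 on slide 3 and -0.88 on slide 1. pmp3 (SPBC713.11c), a small membrane proteolipid gene, had 2.92, 2.45 and -2.37 in the same order. htb1, the gene of histone H2B, had 2.53, 2.26 and -0.81. On slides 2 and 3 these ORFs stood above nearly every other, and on slide 1 as labelled all of them lay below 0.

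The first 90 coding bases of 2 high and 2 low ORFs are shown, 5′ to 3′ and with every G and C in capitals, because base composition differed between the classes. They come from RefSeq assembly ASM294v3 and not from the spotted fragments. The high ORFs are gpm1 (chrI:5174518-5174607, minus strand) and htb1 (chrIII:1412484-1412573, plus strand), and the low ORFs are wtf5 (chrIII:243855-243944, plus strand) and SPAC977.03 (chrI:33835-33924, plus strand).
gpm1: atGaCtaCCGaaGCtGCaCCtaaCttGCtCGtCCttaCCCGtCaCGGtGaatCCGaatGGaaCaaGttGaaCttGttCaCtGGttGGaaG
htb1: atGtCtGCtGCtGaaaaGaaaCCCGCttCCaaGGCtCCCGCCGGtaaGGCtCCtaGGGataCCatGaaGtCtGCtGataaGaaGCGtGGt
wtf5: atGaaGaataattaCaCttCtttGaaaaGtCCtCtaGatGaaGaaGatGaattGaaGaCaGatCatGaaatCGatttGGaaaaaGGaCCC
SPAC977.03: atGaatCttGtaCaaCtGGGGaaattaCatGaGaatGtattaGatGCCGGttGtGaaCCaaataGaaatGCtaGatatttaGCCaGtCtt

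The first of the 10 highest ORFs by the mean of slides 2 and 3 was SPAC25B8.12c, for which RefSeq gives no gene name, with 3.13, 2.37 and -0.24 on slides 2, 3 and 1. The feature trx2, a thioredoxin gene by its name but not matched to a RefSeq gene, had the single highest value of slide 2, 3.66. It had 1.69 on slide 3 and -1.19 on slide 1. Without background correction its mean over slides 2 and 3 fell from 2.68 to 1.21. Its input on slide 2 was not well above background, so the ratio there is uncertain and may be too high. Of the 10, it is the member for which slides 2 and 3 differed most.

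Of the rest of the 10, wwm3 (SPBC660.05) had 2.82 on slide 2, where its input was also not well above background, and 2.53 on slide 3, and knh4 (SPBC1E8.05) had 2.68 and 2.62. The feature named gpd1 had 2.68, 2.62 and -1.24 on slides 2, 3 and 1. Its name stands for a glycerol-3-phosphate dehydrogenase in RefSeq and has also been used for glyceraldehyde-3-phosphate dehydrogenase, so its role is uncertain here. SPBC11C11.06c had 2.67 and 2.53 on slides 2 and 3, and tef1-e, a translation elongation factor by its name, had 2.23 and 2.47. All 10 were below 0 on slide 1, between -0.07 and -2.37.

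**Figure D2:**
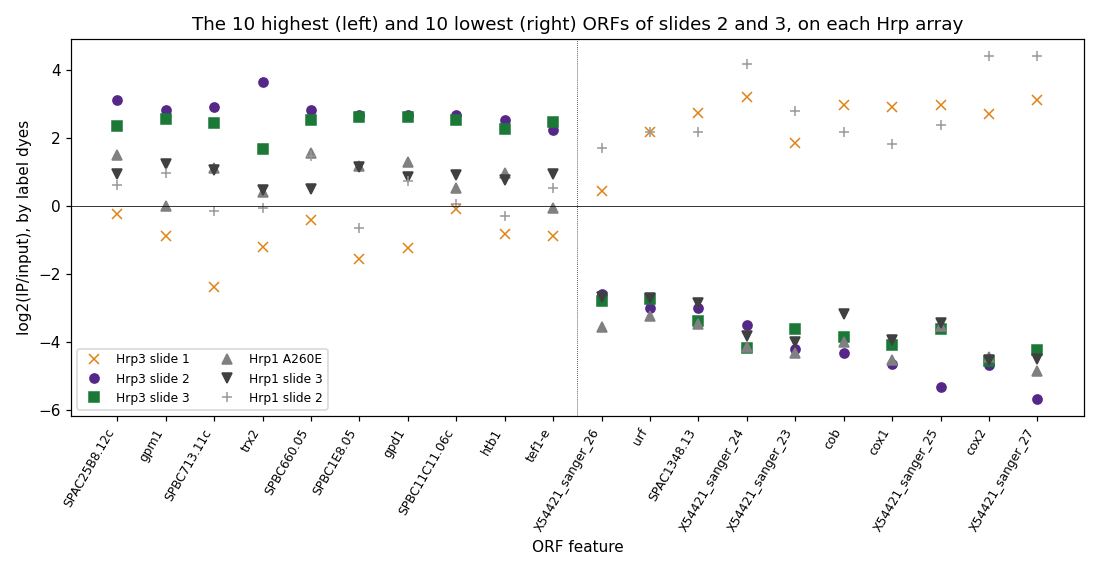
Log2(IP/input) by label dyes (vertical axis) of the 10 highest (left) and 10 lowest (right) ORFs of slides 2 and 3 on each of the 3 Hrp3 and 3 Hrp1 arrays, 1 symbol per array. Hrp3 slide 1 lies below 0 for the 10 highest and above 0 for the 10 lowest, where Hrp1 slide 2 lies above 0 too.

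Among the ORFs called with slide 1 turned, pmp3 had the largest mean, 2.58 ± 0.245 (SE, n = 3; adjusted p = 0.0018, limma). Next to it, knh4 had a mean of 2.28 ± 0.290 (SE, n = 3; adjusted p = 0.009, limma). fba1, the fructose-bisphosphate aldolase gene, reached 2.06 ± 0.25 (SE, n = 3; adjusted p = 0.0087, limma), and pil1 (SPCC736.15), a core component of the eisosomes under the plasma membrane, reached 2.04 (adjusted p = 0.0087, limma). mex67, the mRNA export receptor gene, had 1.96, 1.95 and -1.71 on slides 2, 3 and 1, and a turned mean of 1.87. The proton pump gene pma1 had 2.32, 1.65 and -1.38, and the actin gene act1 had 2.35, 2.21 and -0.72.

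Glycolysis stood highest of the gene lists. The lists were chosen with earlier results of these data known, so the counts are read against the shares of all ORFs and not tested. Of 15 ORFs of glycolysis and fermentation, 11 (73.3%) were high and 0 low, against 4.66% and 3.6% of all ORFs, and their median log2 ratio over slides 2 and 3 was 1.92, a 3.77-fold IP over input beyond the typical ORF. On both slides 14 of the 15 were above 0, against 36.6% of all ORFs, and 7 were called higher with slide 1 turned. On slide 1 as labelled, 12 of the 15 were below 0, with a median of -0.23. The list was not high for Hrp3 alone. On the Hrp1 arrays A260E, slide 2 and slide 3, 13, 12 and 14 of the 15 were above 0, against 50.2%, 49.9% and 49.9% of all ORFs.

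The high members covered nearly the whole pathway from hexokinase to ethanol. The values on slides 2 and 3 were 2.16 and 1.95 for hxk2 (hexokinase), 1.94 and 1.89 for pgi1 (glucose-6-phosphate isomerase), and 1.74 and 1.04 for pfk1 (phosphofructokinase). Downstream they were 2.29 and 2.22 for tpi1 (triosephosphate isomerase), 1.87 and 2.75 for pgk1 (phosphoglycerate kinase), and 2.22 and 2.16 for eno1 (enolase). For pyk1 (pyruvate kinase) they were 2.43 and 2.14, and for adh1 (alcohol dehydrogenase) 1.36 and 1.83. The members outside the high class were pdc101 (SPAC1F8.07c), adh4 (SPAC5H10.06c), hxk1 and pdc201 (SPAC3G9.11c). Of these pdc201, a pyruvate decarboxylase gene, had the lowest values, -0.16 and -0.18, and hxk1 had 0.82 and 0.28 while its paralogue hxk2 was high. Neither dye of pdc201 was well above background on slide 2, so its ratio there carries little information.

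Cytoplasmic ribosomal protein genes were shifted as a body. Of 136 features, 44 (32.4%) were high and 0 were low, the median log2 ratio of slides 2 and 3 was 1.10 (2.15-fold), and 131 were above 0 on both slides. Slide 3 placed 102 of them in its top 401 and slide 2 placed 49, so slide 2 kept most of the list out of the high class. On slide 1 as labelled 95 of the 136 were below 0, with a median of -0.30, and with slide 1 turned 14 were called higher. rpl7a was the highest member, with 2.14 and 2.31, and rpl22 had 2.35 and 2.03. rps27 had 3.18 on slide 2 but 0.80 on slide 3 and was not high. The lowest member was rpl18-2, with -0.04 and -0.45. Neither of its dyes was well above background on slide 2 or on slide 3, so these ratios carry little information. Many ribosomal proteins are encoded by 2 near-identical copies, and a spotted ORF can hybridise with DNA of both.

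Core histone genes followed the same order on slides 2 and 3. Of 10 features, 4 were high: htb1 and the 3 histone H3 genes, listed in the files as h3.1, h3.2 and h3.3. The H3 values on slides 2 and 3 were 1.63 and 1.66, 1.27 and 2.13, and 1.22 and 1.87. The 3 H4 genes and both H2A genes were above 0 on both slides but below the limit on slide 2, with values there from 0.44 to 0.71. pht1, the gene of the variant H2A.Z, was the lowest, with -0.26 and 0.05. The copies of H3 and of H4 are close to identical, and their spots cannot be taken as separate measurements of each gene. On slide 1, 8 of the 10 were below 0, with a median of -0.58.

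Of the heat shock and chaperone genes 10 of 15 (66.7%) were high, with a median of 1.44 (2.72-fold) and all 15 above 0 on both slides. bip, the Hsp70 of the endoplasmic reticulum, had 2.14, 1.74 and -1.44 on slides 2, 3 and 1. hsp9 had 1.58, 1.91 and -2.30, and pss1, of the Hsp110 family, had 2.07, 1.25 and -2.16. Their slide 1 values were among the lowest of that array, while sti1, an Hsp90 co-chaperone gene, was high on all 3 arrays as labelled, with 1.67, 1.22 and 1.85. The mitochondrial chaperonin gene hsp60 was the lowest member, with 1.29 and 0.14.

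Stress enzymes were split in the same way. Of 10 genes that the environmental stress response is known to engage, 6 were high, with a list median of 1.30 on slides 2 and 3. gpx1 (glutathione peroxidase) had 2.19 and 2.17, and tpx1 (SPCC576.03c, peroxiredoxin) had 1.91 and 2.07. The catalase gene cta1 (ctt1 in RefSeq) had 1.58, 1.65 and 1.23 on slides 2, 3 and 1, and tps1, a trehalose synthesis gene, had 1.34, 1.67 and 0.90. Unlike in the lists described before it, the median of this list on slide 1 as labelled was above 0, at 0.11, and 1 member was called with slide 1 turned. The glutathione S-transferase genes gst1 (SPCC191.09c) and gst2 (SPCC965.07c) gave opposite signs on slides 2 and 3, while gst3 (SPAC688.04c) had 1.76 and 1.27. Neither dye of gst2 was well above background on slide 2.

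Translation factors and hexose transporters were mixed. Among 34 translation factors, 9 were high and 1 low, with a median of 0.75. tif51 (translation factor eIF5A) had 1.97 and 2.40 on slides 2 and 3, and tif1 (the helicase eIF4A) had 1.90 and 2.29, while tif1102 (SPBC146.08c) was low with -1.51 and -0.88. Of 7 hexose transporters only ght8 (SPCC548.06c) and ght5 were high, with 2.14 and 1.70, and 1.89 and 1.81. The other five were between -0.93 and 0.90 on slide 2, where ght3 was the lowest.

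**Figure D3:**
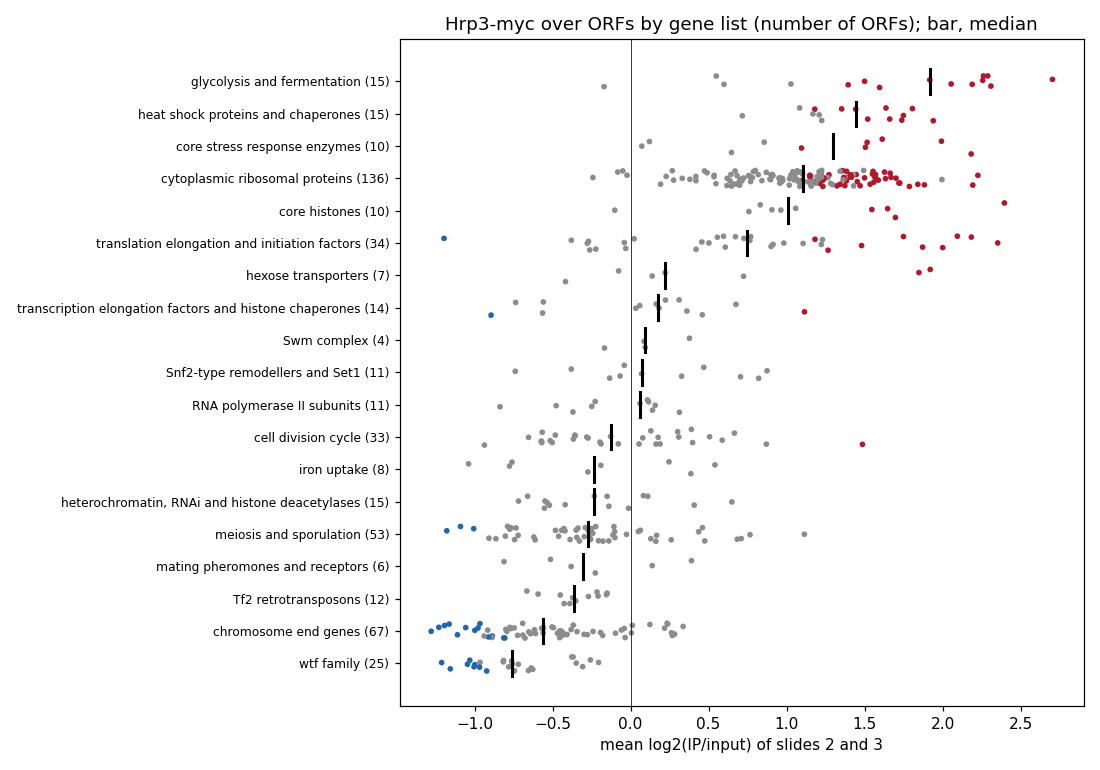
Mean log2(IP/input) of slides 2 and 3 (horizontal axis) of each member of 19 gene lists, with red points for high, blue for low and grey for other ORFs, and a black bar at the list's median. Glycolysis, chaperone, stress, ribosomal protein and histone genes lie to the right, wtf and chromosome end genes to the left. The vertical spread of points is only for legibility.

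Genes of the transcription and chromatin machinery itself lay near the typical ORF. The 11 subunits of RNA polymerase II had a median of 0.06 on slides 2 and 3, with 0 high and 0 low, and the median was -0.24 with slide 1 turned. The 14 elongation factors and histone chaperones had a median of 0.17, with nap1 (SPCC364.06) high at 1.17 and 1.06, and hip1 (SPBC31F10.13c), of the HIRA chaperone, low at -0.92 and -0.87. The 11 Snf2-type remodellers and Set1 had a median of 0.07 and no high or low member. mit1 (SPBP35G2.10), the remodeller of the SHREC complex, was the highest, with 0.86 and 0.89. set1 (SPCC306.04c), which encodes the H3K4 methyltransferase, was the lowest, with -0.31 and -1.17.

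The ORFs of the remodellers and the demethylases under study were unremarkable. hrp3 had -0.17 on slide 2, 0.04 on slide 3 and 0.13 on slide 1, and hrp1 had 0.49, 0.17 and -0.11. swm1 (SPBC146.09c, lsd1 in RefSeq) had 0.61, -0.44 and -1.06, and swm2 (SPAC23E2.02, lsd2 in RefSeq) had 0.16, -0.50 and 0.99. For both demethylase genes slides 2 and 3 disagreed in sign. The 4 genes of the Swm complex had a median of 0.09, with 0 high and 0 low.

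Genes of meiosis, mating and iron uptake, which are known to be induced by starvation, pheromone or low iron, had medians below the typical ORF. The 53 meiosis and sporulation genes had a median of -0.27, with 34 below 0 on both slides against 36.9% of all ORFs, 0 high and 3 low: rec8, meu6 (SPBC428.07) and mde4 (SPBC6B1.04). rec8, the meiotic cohesin gene, had -1.32 and -1.03. The 6 mating genes had a median of -0.30 and the 8 iron uptake genes of -0.23, and neither list held a high or low member. The 15 heterochromatin, RNAi and histone deacetylase genes had a median of -0.23, and the 33 cell division cycle genes of -0.13 with a single high member, cdc48 (SPAC1565.08). Among the 12 Tf2 retrotransposon features, whose copies are near-identical, 9 were below 0 on both slides, with a median of -0.36.

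The wtf genes, a family of meiotic drivers and their pseudogenes, stood lowest of the nuclear lists. Of 25 features, 8 (32.0%) were low, 0 were high and 24 were below 0 on both slides, with a median of -0.76 (0.590-fold). wtf5 had -1.56, -0.86 and 0.17 on slides 2, 3 and 1, and wtf13 had -1.36, -0.95 and -0.30. The highest was wtf10, with -0.36 and -0.05. Their median on slide 1 as labelled was 0.14, and none was called with slide 1 turned. The copies are similar in sequence and share hybridisation.

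Genes nearest the chromosome ends were low as well. Of the first and last 25 protein-coding genes of chromosomes I and II in RefSeq, 67 were matched to a feature, from 3 of the 4 ends, since no feature name matched at the left end of chromosome II. Of these 67, 13 (19.4%) were low, 0 high and 50 below 0 on both slides, with a median of -0.56. The 3 ends were alike, with medians of -0.57 (22 genes), -0.44 (25 genes) and -0.66 (20 genes). SPAC977.03 was the lowest, with -1.48, -1.08 and 0.75 on slides 2, 3 and 1. The galactose genes gal1 (SPBPB2B2.13) and gal10 (SPBPB2B2.12c) were low with -1.02 and -0.76, and -0.94 and -0.68, while gal7 (SPBPB2B2.10c) had 0.36 and 0.12. The end genes pho1 and pho84 (SPBC8E4.01c), for an acid phosphatase and a phosphate transporter, were above 0, with 0.12 and 0.34, and 0.47 and 0.20. On slide 1 the list's median was 0.05.

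In windows of 25 neighbouring ORFs along the chromosomes (4677 windows over 4749 placed ORFs) the ends were also among the lowest stretches. The lowest window of all ran from SPAC212.04c to SPAC1F8.04c near the left end of chromosome I, with a median of -0.81 on slide 2, -0.47 on slide 3 and -0.04 on slide 1, and held 6 low ORFs. The last ORFs of chromosome II, from SPBC1289.16c to SPBPB2B2.19c, had -0.63, -0.47 and 0.13 and held 5. An internal stretch of chromosome III, from ssb2 to SPCC777.05, had -0.49, -0.48 and -0.14. The highest window was internal, on chromosome I from srp2 to stm1, with 0.70, 0.41 and -0.11.

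**Figure D4:**
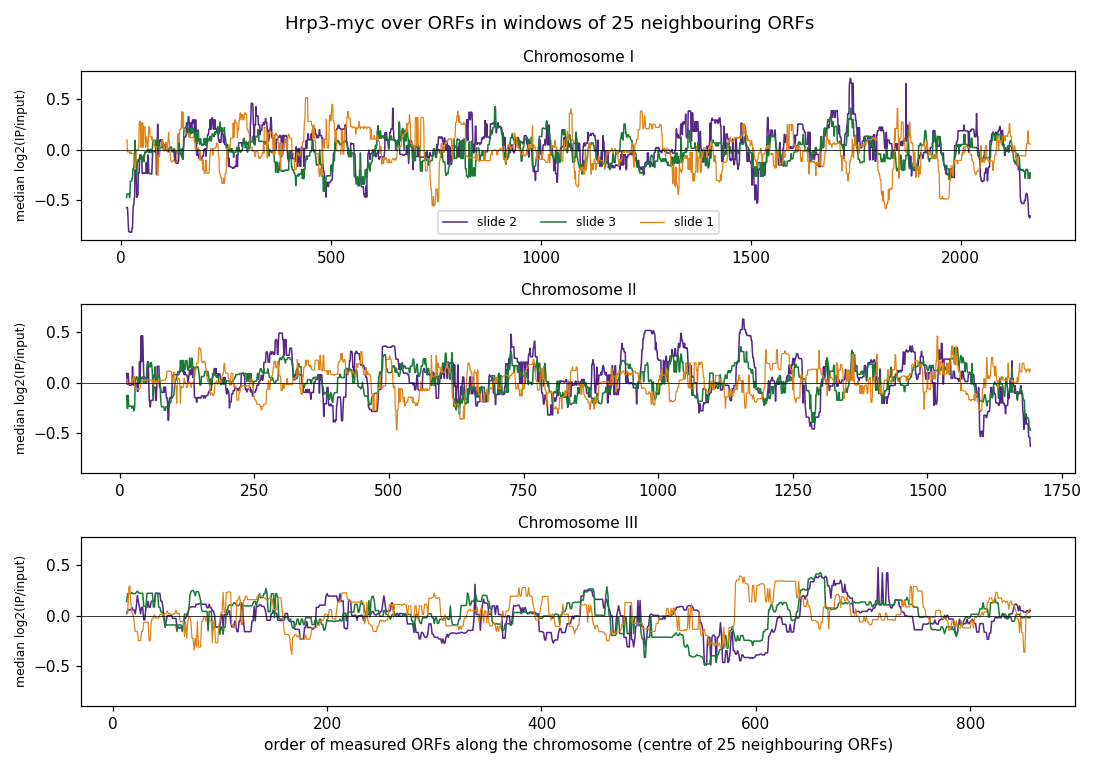
Median log2(IP/input) of windows of 25 neighbouring measured ORFs (vertical axes) by their order along chromosomes I, II and III (horizontal axes), 1 line per Hrp3 array. Slides 2 and 3 dip together at both ends of chromosome I and at the right end of chromosome II, to medians of -0.81 and -0.47 at the lowest.

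High and low ORFs were found on all 3 chromosomes. High ORFs made up 4.21% of the ORFs of chromosome I, 4.40% of chromosome II and 5.75% of chromosome III, and low ORFs 2.93%, 3.22% and 3.79%. Of 216 placed high ORFs, 28 (13.0%) had a directly neighbouring ORF that was high too, and of 4749 placed ORFs of any class 8.84% had a high neighbour. Of 152 placed low ORFs, 25 (16.4%) had a low neighbour, against 6.34% of all placed ORFs. Runs of 3 high ORFs were found at 4 places, and the strongest was SPBC660.05 to SPBC660.07 on chromosome II, where wwm3 is followed by wwm2 (2.40 and 1.75 on slides 2 and 3) and the neutral trehalase gene ntp1 (1.24 and 0.95). The others were bgl2 to tif51, rps26-2 to rpl14 and hob3 to php2. The only run of 3 low ORFs was SPCC576.01c, SPCC576.19c and SPCC576.02 on chromosome III, close to the high ORF of tpx1.

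Mitochondrial DNA gave the lowest ratios of all. The 10 lowest ORFs were cob (cytochrome b), cox1 and cox2 (cytochrome oxidase subunits), urf, 5 features named X54421_sanger_23 to X54421_sanger_27 and SPAC1348.13. cob had -4.31 on slide 2, -3.86 on slide 3 and 2.97 on slide 1. cox1 had -4.63, -4.09 and 2.91, and cox2 had -4.66, -4.55 and 2.72. The 10 features ranged from -5.66 to -2.58 on slide 2 and from -4.55 to -2.73 on slide 3, below every other ORF on both slides, and all 10 were above 0 on slide 1, with a median of 2.82 and X54421_sanger_26 lowest at 0.46.

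Only cob, cox1 and cox2 are matched to the mitochondrial genome by name. The other seven gave ratios of the same kind, and neither the files nor the gene table used here place them there. Hrp3 is a remodeller of nucleosomes, and mitochondrial DNA carries none. On the IP dye of slide 2, cox2, urf and 3 of the X54421 features were not well above background, so the size of their ratios there is uncertain. With the dyes as labelled, IP was below input for these features on slides 2 and 3 and above it on slide 1. Hrp1 slide 2 gave the opposite sign too, with a median of 2.29 over the 10, against -4.07 on the Hrp1 array labelled A260E and -3.63 on Hrp1 slide 3. Without these 10 features slides 2 and 3 had a Spearman correlation of 0.689 and slide 1 had -0.19 and -0.24 with them, so the disagreement was nearly as large without them.

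Other low ORFs came from many processes. Just above the mitochondrial-type features stood hsp3102 (SPAC5H10.02c), with -1.72, -1.40 and 0.91 on slides 2, 3 and 1, and rrn10 (SPAC22E12.08), a factor of ribosomal DNA transcription, with -1.44, -1.46 and 0.97. coa5 (SPBC16A3.16) had -1.24, -1.65 and 1.44. These 3 were called lower with slide 1 turned, with means of -1.35, -1.29 and -1.44 (adjusted p of 0.0407, 0.0407 and 0.0275, limma). Further low ORFs were smn1, of the complex that assembles spliceosomal particles, with -1.68 and -1.22, the H3K56 acetyltransferase gene rtt109 (SPBC342.06c), with -1.18 and -1.41, and the SAGA subunit gene spt3, with -1.46 and -0.95. They share no list, and 29 of the 180 low ORFs (16.1%) were in any list, against 88 of the 233 high ORFs (37.8%) and 9.77% of all ORFs. RefSeq gives no gene name to 21.3% of the matched low ORFs, to 12.0% of the matched high ORFs and to 15.2% of all.

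On slides 2 and 3 the ratio moved with base composition. Coding sequences of the high ORFs had a median GC content of 45.3% (217 with a value), those of the low ORFs 38.6% (155) and those of all ORFs 39.7% (4762), from the RefSeq sequences of the genes and not from the spotted fragments. Of the coding bases printed above, G and C make up 48.9% in gpm1, 53.3% in htb1, 33.3% in wtf5 and 35.6% in SPAC977.03. Over the whole coding sequence the shares are 51.9%, 45.4%, 36.7% and 35.6%, so the printed stretch of htb1 is richer than its gene and that of gpm1 poorer.

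Divided into 5 equal groups by GC content, the richest group (42.3% to 54.9%) held 173 high ORFs, 18.2% of its 953, and the poorest (24.4% to 37.3%) held 4, 0.42%. Low ORFs ran the other way, with 1.15% of the richest and 5.77% of the poorest group. The Spearman correlation of GC content with the log2 ratio, across 4762 ORFs, was 0.31 on slide 2, 0.37 on slide 3 and -0.05 on slide 1. The mean log2 intensity of both dyes, over 5005 features, had correlations of -0.05, 0.14 and 0.12 in the same order. Coding length had correlations of 0.11, -0.08 and -0.03, and the median length was 927 bases for high, 861 for low and 1167 for all ORFs.

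**Figure D5:**
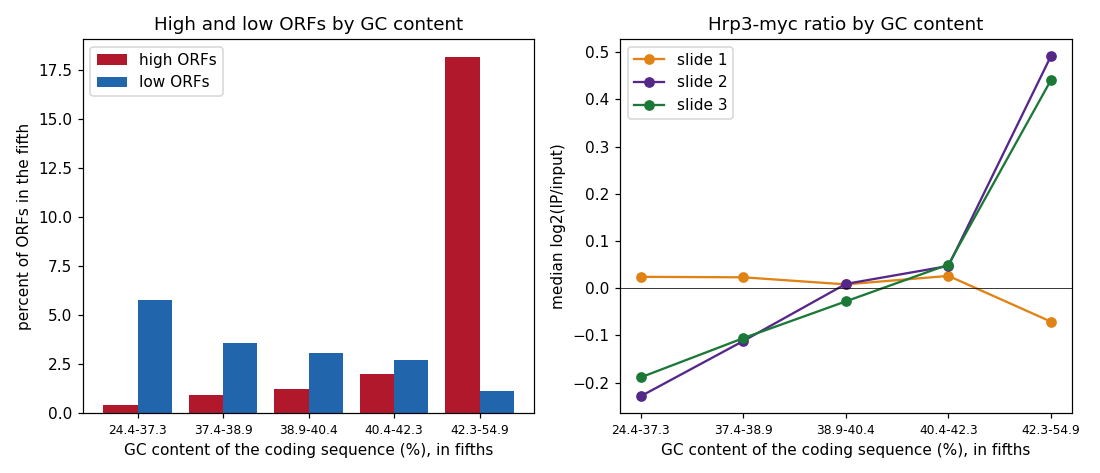
Left, percent of ORFs in each of 5 equal groups by GC content of the coding sequence (horizontal axis) that were high (red) or low (blue). Right, the median log2(IP/input) of each group on each Hrp3 array. On slides 2 and 3 the median of the richest group is 0.49 and 0.44, and on slide 1 it is -0.07.

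The gene lists and base composition moved together, since the median GC content was 49.5% in glycolysis and 47.9% in ribosomal protein genes. Within the richest GC group, 69 of the 177 ORFs of the ribosomal protein, histone, glycolysis, chaperone, stress, translation and hexose transporter lists were high (39.0%), against 104 of the 776 others (13.4%). Taken as the difference from the median of its own GC group, the median of glycolysis was 1.25, of chaperones 0.98, of ribosomal proteins 0.64 and of chromosome end genes -0.46. For the wtf genes it was -0.68, which covers only the 13 of 25 features with a GC value. The part of GC content in hybridisation or amplification was not tested.

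Signal strength on slide 2 differed between the classes. Of the high ORFs, 145 of 233 (62.2%) had an input signal well above background on slide 2, against 71.9% of all ORFs, and 232 of 233 had it on slide 3. Where the input is dim, the size of the ratio is uncertain. The low ORFs had an IP signal well above background in 168 of 180 on slide 2 and in all 180 on slide 3.

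Hrp1 was compared because it is the paralogue of Hrp3 and was measured on the same features. The Hrp1 arrays had a narrower range, with standard deviations over ORFs of 0.466 (A260E), 0.704 (slide 2) and 0.430 (slide 3), against 0.716, 0.754 and 0.604 for Hrp3 slides 1 to 3. Hrp1 slide 2 correlated negatively with the other Hrp1 arrays (Spearman correlations of -0.06 and -0.08) and positively with Hrp3 slide 1 (0.22). Of the 233 high Hrp3 ORFs, 81 (34.8%) were in the top 401 of A260E, 110 (47.2%) in that of Hrp1 slide 3 and 21 (9.01%) in that of Hrp1 slide 2, against 8.01% of all ORFs. Of the 180 low ORFs, 63 (35.0%), 96 (53.3%) and 11 (6.11%) were in the bottom 401. On A260E, slide 2 and slide 3 of Hrp1, 101, 87 and 116 of the 136 ribosomal protein features were above 0. Chaperones had 12, 10 and 11 of 15 above 0, histones 8, 5 and 8 of 10 and stress enzymes 6, 7 and 6 of 10. Below 0 were 18, 20 and 23 of the 25 wtf features and 36, 43 and 32 of the 67 chromosome end genes. Of all ORFs 50.2%, 49.9% and 49.9% were above 0.

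By the label dyes of all 6 arrays, limma called no ORF different between Hrp3 and Hrp1 (0%). Only 103 ORFs, 2.06% of all, had an unadjusted p under 0.05. Between the 2 arrays of each protein that correlated positively, a choice made from the data, Hrp3 was called higher over 180 ORFs (3.6%) and lower over 23 (0.46%). The ratios were not scaled to a common spread. The narrower range of the Hrp1 arrays therefore enters these differences, and its part in the calls was not tested. The Hrp1 side also holds the A260E array, while both Hrp3 arrays carry K080D, so code and protein cannot be fully told apart. Of the 180, 137 were high Hrp3 ORFs, and of the 23, 13 were low. The same values of slides 2 and 3 chose those classes and form the Hrp3 side of the difference, so this overlap is a description. The Hrp1 ratios of the high ORFs had medians of 0.49 on A260E and 0.51 on slide 3. Members of the ribosomal protein list were called higher on the Hrp3 arrays in 24 of 136 cases, chaperones in 8 of 15 and glycolysis in 6 of 15. Stress enzymes were called in 6 of 10 cases and translation factors in 6 of 34, against 3.6% of all ORFs. The median differences of the first 3 lists, called or not, were 0.79, 1.14 and 0.79, against 0.03 for all ORFs. Slides 2 and 3 also placed these lists high, so these counts are a description too.

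Among named ORFs with the largest difference, trx2 had 3.66 and 1.69 on Hrp3 slides 2 and 3 and 0.41 and 0.48 on the Hrp1 arrays A260E and slide 3. The fitted difference was 2.23 ± 0.399 (SE, n = 2 against 2; adjusted p = 0.0019, limma), and it rests on the dim input of slide 2. gpm1 had 0.01 and 1.23 on the Hrp1 arrays, a difference of 2.08 ± 0.342 (SE; adjusted p = 0.001, limma), and pho842 (SPAC23D3.12), with 2.44 and 1.72 for Hrp3, had 0.24 and -0.11, a difference of 2.02 ± 0.317 (SE; adjusted p = 0.001, limma). The catalase gene cta1 (1.83), the actin gene act1 (1.83) and the glucose transporter gene ght5 (1.87) were also called higher for Hrp3. On slide 2 the inputs of pho842, act1 and ght5 were not well above background either, so these differences rest in part on uncertain ratios. Both dyes of gpm1 and cta1 were well above background there. All of these ORFs were high for Hrp3, while on the Hrp1 arrays they lay between -0.26 and 1.23.

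In the other direction, SPCC622.02 had -0.98 and -0.45 for Hrp3 and 1.97 and 1.68 for Hrp1, a difference of -2.54 ± 0.310 (SE; adjusted p = 3.68e-05, limma). The feature pi005 had -1.05 and -0.62 against 0.62 and 0.78 (difference -1.54), and pcm2 (SPAC869.08), near the right end of chromosome I, had -0.94 and -0.67 against 0.48 and 0.78 (difference -1.44). For pcm2 neither dye was well above background on slide 2, so its ratio there carries little information. SPCC622.01c, next to SPCC622.02 by its systematic name, was also lower for Hrp3, with -0.79 and -0.66 against 0.64 and 0.62. Of the 67 chromosome end genes 5 were called lower, against 0.46% of all ORFs, all at the right end of chromosome I and among them mel1 (SPAC869.07c) and gdt1 (SPAC186.05c), and the list's median difference was -0.49, against 0.03 for all ORFs.

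Other readouts of the series were set beside the classes, as medians with no test. On the arrays of H3K4 dimethylation in swm1Δ over wild-type cells, the high ORFs had medians of 0.07 and 0.02 (2 arrays), the low ORFs of -0.42 and -0.26 and all ORFs of -0.02 and -0.02. The intergenic region (IGR) arrays of Hrp3 carry features with the same gene names, but which side of the gene they cover is not given with them. On IGR slide 2 the regions named for high ORFs had a median of 0.87 and those named for low ORFs of -0.39, and on IGR slide 3 the medians were 0.99 and -0.29. On the IGR array with no slide number in its label they were -0.35 and 0.12, a turned order like that of slide 1 over ORFs.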

How the data were processed

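Two-colour spotted arrays of Hrp3-myc (3) and Hrp1-myc (3) immunoprecipitates against input were read from the deposited scanner files. For every spot the authors deposited uncorrected median intensity and median local background for both dyes, and for each array a table of log10 values, of a single dye over the array's median with a floor of -2, which were used as an alternative only. Rows repeated in a second file (5917 each on slides 1 and 2) were counted once. Intensities were background corrected with normexp and an offset of 50 in limma 3.58.1 (R 4.3.3), turned into log2(Cy3/Cy5), averaged over the 2 spots and centred on each array's median. No loess was used, since the methods name a per chip normalization and rank for Hrp binding, with the percentile of 0.92 used here.

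Mean log2 ratios were tested with limma against 0 and between Hrp3 and Hrp1, with Benjamini-Hochberg adjustment at 0.05 over 5005 features. An exact permutation test of 3 arrays could not fall under this limit and was not run. The limma fits were tested on simulated data. Tables and plots used Python 3.11.15, numpy 2.4.6, pandas 2.3.3, scipy 1.17.1 and matplotlib 3.10.9. Spots at least 1.5 times the background count as well above it. The number of arrays limits the precision.

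The members and gene lists were chosen with earlier results of these data known. Genes named are the 10 highest and 10 lowest ORFs of slides 2 and 3, the highest and lowest member of each list, hrp1, hrp3, swm1 and swm2, and the 3 largest differences from Hrp1 in each direction. Other genes were named after their values were seen. The genome build and scanner software are not given in the sources used here. Feature names were matched to the RefSeq gene table of ASM294v3 for 4764 of 5005 features (3466 by systematic name, 936 by symbol, 362 by synonym), which gave gene order, coding length and GC content. The number of deposited columns not matched to a sample was 0. Other backgrounds, normalizations, spot filters, percentiles, dye directions, deposited values and leaving out arrays were tried.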

Additional observations from a re-analysis of the deposited data

Results flagged for a closer look

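The difference between Hrp3 and Hrp1, taken over the arrays of each protein that correlate positively, was past the threshold of limma's test over all 5005 ORFs for 203 ORFs, and the 3 largest in each direction are given here. Hrp3 was higher over trx2 by 2.23 on the log2 scale, over gpm1 by 2.08 and over pho842 (SPAC23D3.12) by 2.02, on both Hrp3 slides against both Hrp1 arrays in each case (adjusted p of 0.0019, 0.001 and 0.001, limma). Hrp3 minus Hrp1 was -2.54 over SPCC622.02, -1.54 over pi005 and -1.44 over pcm2 (SPAC869.08), with adjusted p of 3.68e-05, 0.0034 and 0.0056 (limma). On Hrp3 slide 2 the inputs of trx2 and pho842 and both dyes of pcm2 were not well above background, so the differences of these 3 ORFs rest in part on dim spots. With all 6 arrays by their labels none of the 6 was called, and the arrays were chosen from their own correlations. The ratios were not scaled for the narrower range of the Hrp1 arrays, and the code A260E was on the Hrp1 side only. SPCC622.02 had 1.42 on Hrp3 slide 1 and -1.30 on Hrp1 slide 2 as labelled, the opposite order to the arrays used. Groups of 3 arrays were too small to look for single outlying values.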

How the results depend on the processing

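For Hrp3 over input, the count of called ORFs was 0 as labelled and stayed 0 under plain background subtraction, no background correction, loess, both spot filters, the first spot only and without the mitochondrial-type features. It was 87 with slide 1 turned, and ranged from 0 to 1366 when an array was left out, with 1366 without slide 1. For Hrp3 against Hrp1 the count was 0 as labelled, 0 with any array left out, 0 with the negatively correlating arrays turned (384 at an unadjusted p under 0.05) and 203 over the positively correlating arrays, an alternative chosen after seeing the data. Slides 2 and 3 of both proteins share only a number: the deviations of same-numbered slides correlated at -0.32 and 0.28. With the slide number as a replicate block 0 ORFs were called (478 unadjusted, 9.55%), as without it (483, 9.65%). The 233 high ORFs numbered 164 to 303 and the 180 low ORFs 125 to 231 under other percentiles, rank rules, backgrounds, normalizations and spot filters. All 3 arrays by their labels, chosen after seeing the data like the next alternative, gave 10 high and 1 low ORFs, and with slide 1 turned 49 and 29. A single agreeing array gives 401 at each end by construction. The deposited single-dye values gave 282 high ORFs, of which 80 were shared, and 254 low ORFs, of which 7 were shared. Of 20 gene lists, 11 had a median above that of all ORFs, and 10 to 11 had under the alternatives. The median of the RNA polymerase II list turned from 0.06 to -0.24 with slide 1 turned. Of the values of single lists and genes under the alternatives, 324 kept within the spread between slides 2 and 3 and 79 moved beyond it. Named genes near 0 changed sign: pdc201 (SPAC3G9.11c) from -0.17 to 0.18 on the first spot only, hrp3 from -0.07 to 0.02 without background correction, and swm1 (SPBC146.09c) from 0.09 to values between -0.08 and -0.01. The cause was not tested for any of these.

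The limits are 3 arrays that do not agree, no untagged control, a high Cy5 background on slides 1 and 2, spots of near-identical genes that share hybridisation and ratios that say nothing of absolute occupancy.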
